A study of Mus musculus with 13 samples.

Results

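The genes described here are 9 transcription factors that establish or mark the adrenal cortex: Nr5a1, Nr0b1, Gata4, Gata6, Wt1, Tcf21, Nr2f1, Nr2f2 and Cited2. They were chosen by name, by a rule that uses no measured value but with earlier results of these data known, and all 9 were among the 14078 genes listed for every library and tested. RNA came from the adrenal glands of mice of the C57BL/6 strain. Giving TAM deletes Star, which encodes the carrier of cholesterol into mitochondria for steroid synthesis. The 13 libraries comprise 5 from before TAM, in which Star had not been removed, 4 from 24 h after TAM and 4 from 8 weeks after TAM. The labels name no age, sex or recombinase driver and do not say whether libraries came from different mice, so the p-values reflect only how far these samples differ, which may be technical. No mice given TAM without the deletion were analysed here, so the loss of Star, TAM itself and the passage of time cannot be told apart. RNA of the gland was measured, so fewer cells of a type and less RNA per cell cannot be told apart either.

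Nr5a1, also known as steroidogenic factor 1, is the nuclear receptor without which neither adrenal glands nor gonads form, and it drives the genes of steroid synthesis. Nr0b1, also known as Dax1, is an unusual nuclear receptor that binds Nr5a1 and represses its activity, and it is itself a gene that Nr5a1 activates. Wt1 and Cited2 act ahead of Nr5a1 in the embryonic adrenal and gonadal primordium. Gata6 is the GATA factor of the adult cortex, whereas Gata4 belongs mainly to the gonads and to the primordium. Tcf21 is a basic helix-loop-helix factor of the stromal cells of the adrenal capsule, and Nr2f1 and Nr2f2 are the COUP-TF nuclear receptors.

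Libraries held between 17331673 and 27309429 listed reads. Star, the targeted gene, averaged 3797 FPKM in the 5 libraries from before TAM (SD 399), 334.7 FPKM in the 4 at 24 h (SD 274) and 146.1 FPKM in the 4 at 8 weeks (SD 50.8), and no later library reached the level of any library from before. The library labelled 24 h replicate 3 stood apart from every other library. Genes made in the adrenal cortex were near 0 in it: Cyp21a1 (21-hydroxylase) at 2.42 FPKM, Cyp11b1 (11-beta-hydroxylase) at 1.07 FPKM and Mc2r (the ACTH receptor) at 0.132 FPKM, against at least 239 FPKM, 177 FPKM and 17.2 FPKM in each of the other 12 libraries. The same library held 246.0 FPKM of Inha (inhibin alpha), 32.5 FPKM of Nr5a2 and 49.9 FPKM of the oocyte gene Gdf9, against 24.3 to 54.5 FPKM, 0.632 to 0.746 FPKM and 0.626 to 0.834 FPKM in the other 24 h libraries. Among steroid genes that cortex and gonad share, Hsd3b1 was at 3024 FPKM in it, above the 1067 to 2574 FPKM of the other 24 h libraries, while Cyp11a1 at 983 FPKM lay below their 2593 to 4656 FPKM. Star at 17.4 FPKM and Scarb1, the lipoprotein receptor, at 96.6 FPKM were lower in it than in each of the other 12 libraries. Its 10 medulla markers summed to 20.01 FPKM, against 4180, 2242 and 118.7 FPKM in 24 h replicates 1, 2 and 4. Replicate 4 thus also lay below the 1200 to 5248 FPKM of the libraries from before. These values go against its label as adrenal gland, so it is called "the library labelled 24 h replicate 3" and results that rest on it are given with and without it. Xist, taken here as a marker of sex, was at 0.0374 FPKM and 0.0101 FPKM in 24 h replicates 3 and 4, against at least 17.7 FPKM in the other 11 libraries. A difference in sex of these libraries cannot be told apart from the effect of time in the comparisons that use 24 h. Before replicate 1 held 5.56 FPKM of the ovarian factor Foxl2, against 0.0139 to 0.257 FPKM in the other 4 libraries from before and 0.145 to 1.40 FPKM at 8 weeks. Gdf9, Foxl2, Nr5a2, Inha and Xist were singled out here after their values were seen. On the list of gonadal markers, Sox9 was at 1.27 FPKM in the library labelled 24 h replicate 3, within the 0.708 to 1.46 FPKM of the other 24 h libraries. Cyp17a1, also on that list, was at 4.87 FPKM in it, against 0.270 to 0.926 FPKM in the others. The tissue of this library was not tested.

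**Figure D1:**
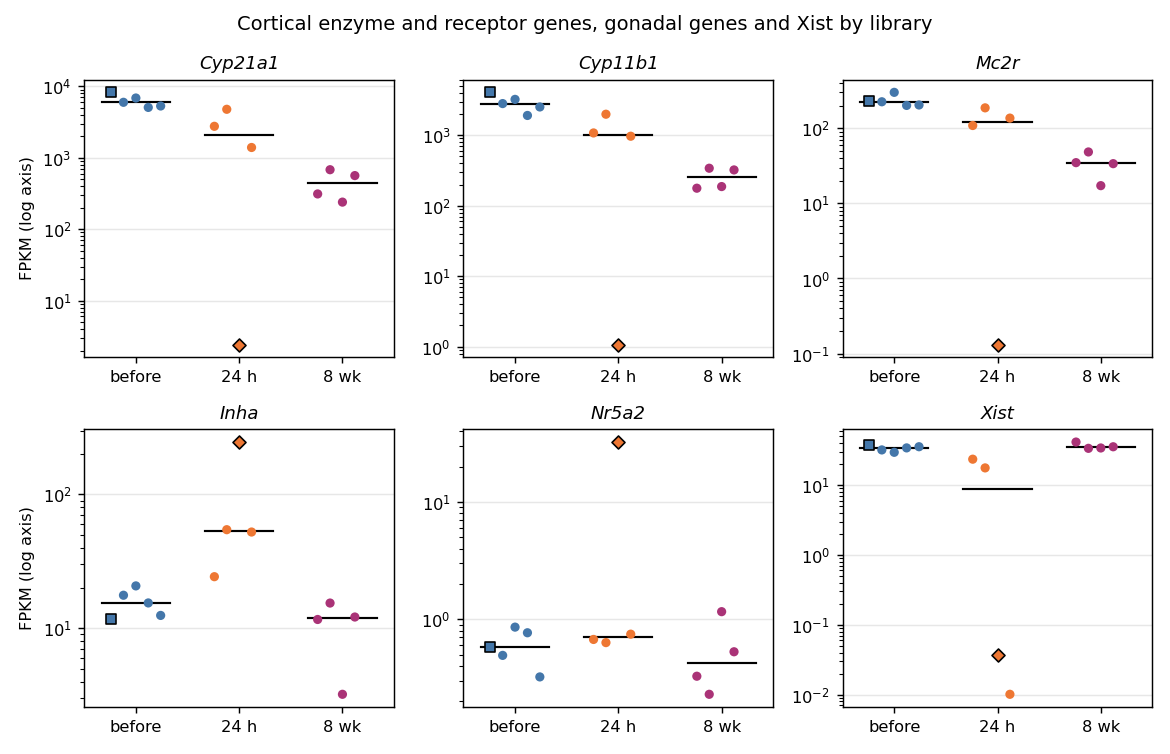
Levels in FPKM (log axes) of 3 cortical genes (Cyp21a1, Cyp11b1, Mc2r), of Inha and Nr5a2, and of Xist, with 1 point per library and the group median as a line; the diamond is the library labelled 24 h replicate 3 and the square is before replicate 1. The diamond lies at 2.42 FPKM for Cyp21a1 and 246.0 FPKM for Inha, outside the range of all other libraries in both panels.

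Before TAM the factors spanned a wide range of levels, given in FPKM, which divides reads by transcript length so that genes can be compared. Nr5a1 was the most abundant at 278 ± 22.8 FPKM (SD, n = 5), and its lowest library lay above every library of the next factor, Cited2, at 31.2 ± 2.78 FPKM. Cited2 and Nr2f2 (28.5 ± 1.92 FPKM) overlapped in range. Gata6 followed at 22.5 ± 3.16 FPKM, below all libraries of Nr2f2 and above all libraries of Nr0b1 (12.1 ± 4.59 FPKM). Nr0b1 overlapped with Tcf21 (10.8 ± 9.88 FPKM), Tcf21 with Nr2f1 (6.22 ± 0.596 FPKM), Nr2f1 with Gata4 (1.98 ± 2.70 FPKM) and Gata4 with Wt1 (1.44 ± 1.24 FPKM). At 8 weeks this order was different at the top. Nr2f2 (32.5 ± 10.6 FPKM), Cited2 (28.8 ± 8.63 FPKM) and Nr5a1 (25.1 ± 12.1 FPKM, n = 4 each) had overlapping ranges there, and Nr0b1 was last at 0.0711 ± 0.0580 FPKM, below every library of the next factor, Gata4.

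**Figure D2:**
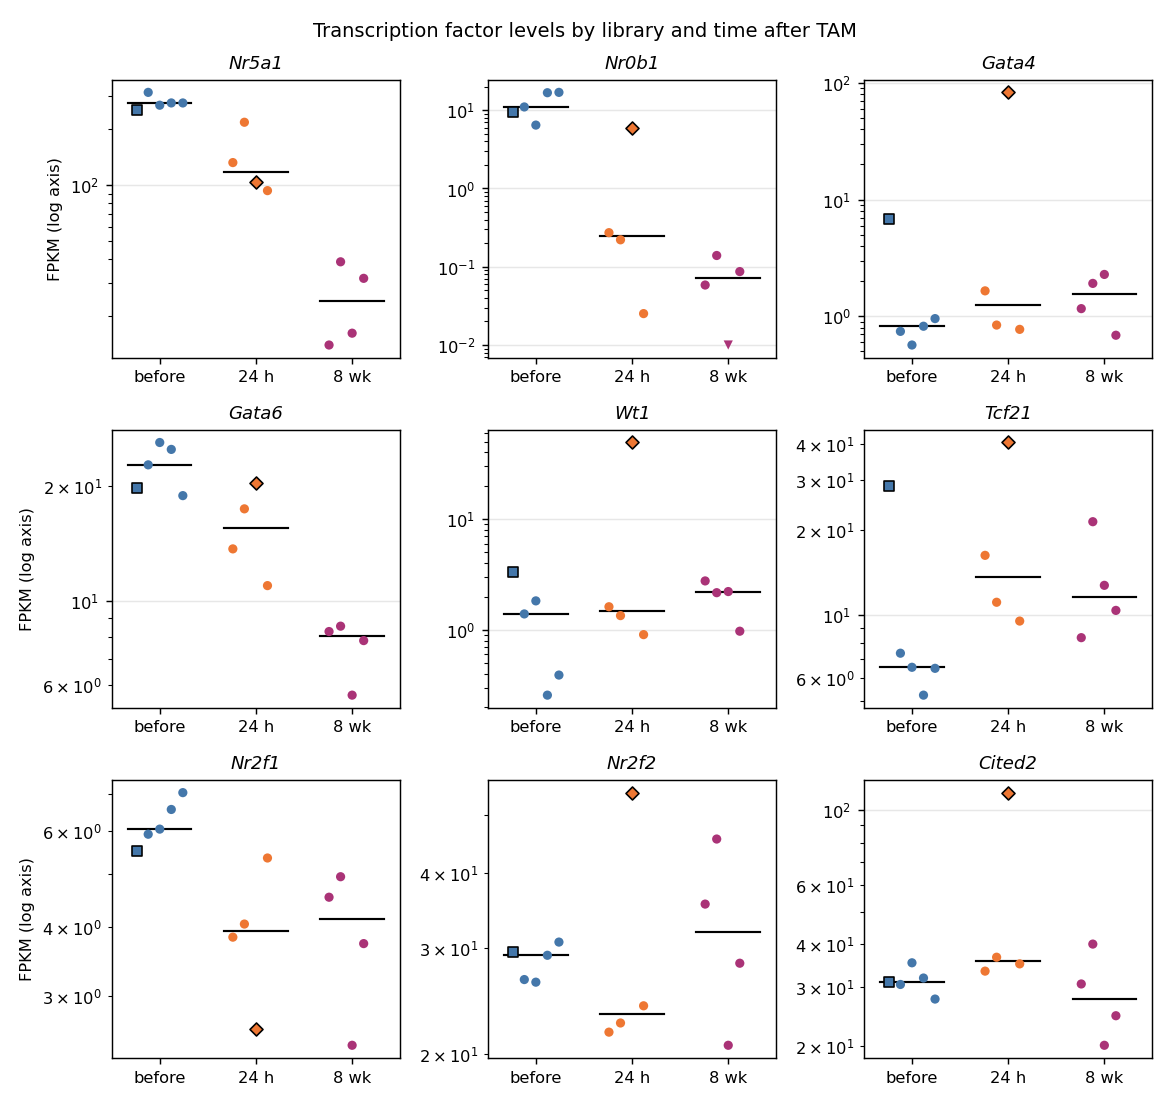
FPKM (log axes) of the 9 factors in each of the 13 libraries, with the group median as a line; the diamond is the library labelled 24 h replicate 3, the square is before replicate 1 and the downward triangle is a library at 0. Nr5a1 and Gata6 at 8 weeks lie below every library of both other groups, and the diamond is the highest 24 h point for Nr0b1, Gata4, Gata6, Wt1, Tcf21, Nr2f2 and Cited2.

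Nr5a1 was the factor with the largest loss in absolute level. It is encoded on chromosome 2 (mm10, 38692660 to 38714542, minus strand). Its level was 253, 315, 269, 276 and 276 FPKM in the libraries from before TAM, 132, 218, 104 and 93.6 FPKM at 24 h and 13.9, 38.9, 16.1 and 31.7 FPKM at 8 weeks. No 2 groups overlapped, and the 8-week mean was 9.04% of the mean before TAM and the 24 h mean 49.3% of it. Nr5a1 fell at 8 weeks against before by 3.36 on the log2 scale (SE 0.34, adjusted p = 2.0e-05 by edgeR's quasi-likelihood test with Benjamini-Hochberg adjustment over all genes), and the call held in all 13 fits that each leave out 1 library. It also fell by 2.36 at 8 weeks against 24 h (SE 0.33, adjusted p = 0.0017 by edgeR). The change at 24 h against before was −0.995 (SE 0.31, adjusted p = 0.038 by edgeR), and this call was kept in 5 of 13 such fits. Without the library labelled 24 h replicate 3 it was −0.84 (SE 0.32, adjusted p = 0.068), and the highest adjusted p over the 13 fits was 0.11, without 24 h replicate 4.

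Nr0b1, the repressor partner of Nr5a1, had the largest fall relative to its own level among the 9 factors at 8 weeks. The gene lies on chromosome X (mm10, 86191775 to 86195944, plus strand). Its level was 9.53, 11.01, 6.46, 16.7 and 16.9 FPKM before TAM and 0.273, 0.221, 5.87 and 0.0252 FPKM at 24 h. At 8 weeks it was 0.0584 and 0.139 FPKM in replicates 1 and 2, 0 in replicate 3 and 0.0868 FPKM in replicate 4. The 24 h libraries therefore split into 3 near 0 and the library labelled 24 h replicate 3, which lay just under the lowest library from before. In reads, the 4 libraries at 8 weeks held 12 in all (95% Poisson interval 6.20 to 21.0, counting error only), and the 5 libraries from before held 2467. The fitted change at 8 weeks against before was −7.24 (SE 1.37, adjusted p = 0.0014 by edgeR), called in all 13 fits that leave out 1 library, with values between −7.75 and −6.89. A fitted change at so few reads depends on the prior count. The change at 24 h against before was −2.98 (SE 1.04, adjusted p = 0.061 by edgeR), and without the library labelled 24 h replicate 3 it was −6.01 (SE 0.67, adjusted p = 0.00010). Between 8 weeks and 24 h it was −4.26 (SE 1.29, adjusted p = 0.035), and −1.26 (SE 0.74, adjusted p = 0.21) without that library. Of the 13 fits that leave out 1 library, the comparison of 24 h against before was called in 1, the fit without the library labelled 24 h replicate 3. The comparison of 8 weeks against 24 h was called in 8 and lost without that library and without each of the 4 libraries at 8 weeks.

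Nr0b1 and Nr5a1 both fell at 8 weeks, and whether these falls are linked was not tested. The promoter of Nr0b1, a gene that Nr5a1 is known to activate, is shown as a description. It runs from 250 bases before the annotated start to the base before it (RefSeq, GRCm38.p6) and is written 5′ to 3′ on the plus strand, with the nuclear receptor half-site AGGTCA in capitals.
Nr0b1, chrX:86191525-86191774: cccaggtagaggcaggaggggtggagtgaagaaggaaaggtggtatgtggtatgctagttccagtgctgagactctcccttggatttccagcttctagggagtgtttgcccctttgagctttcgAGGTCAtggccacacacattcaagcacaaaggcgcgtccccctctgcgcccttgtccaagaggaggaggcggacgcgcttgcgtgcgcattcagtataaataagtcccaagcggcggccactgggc
The half-site, searched on both strands, occurred at −126 to −121 from the RefSeq start, on the gene's own strand. It was present in 14% of the 32851 promoter stretches of this length. Promoter entries matched 5 of the 9 factors (6 entries, of which 1 held AGGTCA). The GATA motif AGATAA, in 9.99% of promoters, was at −31 to −26 in Tcf21, and the E-box CACGTG, in 6.02%, at −153 to −148 in Cited2. Inha, another target of Nr5a1, stood at 24.3, 54.5, 246.0 and 52.3 FPKM at 24 h, against 11.7 to 20.7 FPKM before TAM, a rise of 2.56 on the log2 scale (SE 0.56, adjusted p = 0.0069 by edgeR), and of 1.57 (SE 0.39, adjusted p = 0.010) without the library labelled 24 h replicate 3. At 8 weeks Inha was at 3.21 to 15.4 FPKM, and its change against before was −0.46 (SE 0.55, adjusted p = 0.53).

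Gata6, the GATA factor of the adult cortex, fell at 8 weeks and was called lower at 24 h in the fit of all libraries. It is on chromosome 18 (mm10, 11052510 to 11085635, plus strand). Its level was 19.7, 22.8, 26.1, 25.02 and 18.9 FPKM before TAM, 13.7, 17.4, 20.4 and 10.9 FPKM at 24 h and 8.29, 8.56, 5.63 and 7.84 FPKM at 8 weeks. The 8-week libraries lay below all others, at 33.7% of the mean before TAM, while the 24 h range overlapped with that from before. The log2 change at 8 weeks against before was −1.45 (SE 0.17, adjusted p = 4.6e-05), and at 8 weeks against 24 h it was −0.93 (SE 0.17, adjusted p = 0.0058), both by edgeR and both called in all 13 fits that leave out 1 library. Its change at 24 h against before was −0.52 (SE 0.16, adjusted p = 0.040 by edgeR), called in 6 of those 13 fits, with adjusted p from 0.017 without the library labelled 24 h replicate 3 to 0.11 without 24 h replicate 4.

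Gata4, the gonadal relative of Gata6, was low in most libraries and high in 2. It is on chromosome 14 (mm10, 63198915 to 63245260, minus strand). Its level was 6.81 FPKM in before replicate 1 and 0.743, 0.567, 0.822 and 0.955 FPKM in before replicates 2 to 5. At 24 h it was 1.65, 0.841 and 0.773 FPKM in replicates 1, 2 and 4 and 83.0 FPKM in the library labelled 24 h replicate 3. At 8 weeks it was 1.16, 1.91, 2.28 and 0.688 FPKM. Before replicate 1 also had the highest Foxl2 of the libraries from before, and the library labelled 24 h replicate 3 the highest Gdf9 at 24 h, and the part of other tissue in these values was not tested beyond the fits without them. No comparison of Gata4 was called by edgeR. The 8-week change against before was −0.23 (SE 1.26, adjusted p = 0.90), and 1.09 (SE 0.40, adjusted p = 0.045) in the fit without both of those libraries, so its direction turned. The change at 24 h against before was 3.36 (SE 1.30, adjusted p = 0.090), and −0.77 (SE 0.80, adjusted p = 0.51) without the library labelled 24 h replicate 3.

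Wt1, the zinc-finger factor that acts ahead of Nr5a1 and persists in mesothelial cells and in the gonad, followed the same 2 libraries. It is on chromosome 2 (mm10, 105126529 to 105173614, plus strand). Wt1 was at 3.31, 1.39, 1.83, 0.258 and 0.391 FPKM before TAM, at 1.62, 1.35, 49.2 and 0.906 FPKM at 24 h and at 2.77, 2.168, 2.22 and 0.973 FPKM at 8 weeks. Apart from the library labelled 24 h replicate 3, the 3 groups overlapped. The log2 change at 8 weeks against before was 0.63 (SE 1.07, adjusted p = 0.67 by edgeR), and at 24 h against before 3.11 (SE 1.11, adjusted p = 0.067), which was −0.087 (SE 0.67, adjusted p = 0.94) without that library. Mesothelial markers did not pass the test at either time: of the 5 tested of 6, none was called, and their summed level was 1.09 to 17.9 FPKM before TAM, 1.81 to 58.9 FPKM at 24 h and 9.24 to 31.3 FPKM at 8 weeks.

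Cited2, the co-activator that works with Wt1, showed no called change. It is on chromosome 10 (mm10, 17723228 to 17725674, plus strand). Its level was 31.0, 30.4, 35.3, 31.8 and 27.5 FPKM before TAM, 33.3, 36.6, 112.5 and 35.0 FPKM at 24 h and 30.5, 40.1, 20.1 and 24.6 FPKM at 8 weeks. All groups overlapped, and the library labelled 24 h replicate 3 was again the highest. The log2 change at 8 weeks against before was 0.00041 (SE 0.30, adjusted p = 1.00 by edgeR), and without that library −0.033 (SE 0.15, adjusted p = 0.87). Cited2 changed by 0.78 at 24 h against before, with SE 0.30 and an adjusted p of 0.089, and by 0.24 (SE 0.16, adjusted p = 0.29) without that library.

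Tcf21, the factor of capsular stromal cells, was not called with all libraries and was called higher at both later times without before replicate 1. It is on chromosome 10 (mm10, 22817275 to 22820128, minus strand). Its level was 28.4, 7.35, 6.56, 5.24 and 6.51 FPKM before TAM, 16.3, 11.1, 40.5 and 9.54 FPKM at 24 h and 8.34, 21.3, 12.7 and 10.4 FPKM at 8 weeks. The 8 later libraries all lay above before replicates 2 to 5, and before replicate 1 lay above all but 1 of them. With all libraries the log2 change was 0.41 (SE 0.54, adjusted p = 0.57) at 8 weeks against before and 0.82 (SE 0.54, adjusted p = 0.33) at 24 h against before, by edgeR. Without before replicate 1 alone it was 1.16 (adjusted p = 0.045) and 1.57 (adjusted p = 0.022). Without before replicate 1 and the library labelled 24 h replicate 3 it was 1.13 (SE 0.28, adjusted p = 0.0066) at 8 weeks and 1.00 (SE 0.29, adjusted p = 0.028) at 24 h. Among capsule and fibroblast markers 9 of 10 rose at 8 weeks and 5 of 10 at 24 h against before, where 20.5% and 12.6% of all genes rose, and none fell. Without the library labelled 24 h replicate 3, 1 fell at 24 h, where 11.8% of all genes fell. It was Gli1, with a change of −2.08 (SE 0.43, adjusted p = 0.0037 by edgeR). At 8 weeks against before Gli1 was at −0.93 (SE 0.36, adjusted p = 0.051) in that fit. The part of these markers in the values of Tcf21 was not tested. The summed level of the capsule and fibroblast markers was 165.3 to 508.6 FPKM before TAM, 655 to 1038 FPKM at 24 h and 1092 to 1905 FPKM at 8 weeks.

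Nr2f1 and Nr2f2 are the paired COUP-TF receptors, which repress or activate genes in stromal and vascular cells among others. Nr2f1 is on chromosome 13 (mm10, 78188973 to 78198982, minus strand) and was at 5.52, 5.92, 6.04, 6.57 and 7.05 FPKM before TAM, 3.84, 4.05, 2.61 and 5.35 FPKM at 24 h and 4.54, 4.95, 2.43 and 3.73 FPKM at 8 weeks. All 8 later libraries were lower than the lowest from before, and the later groups overlapped with each other. Even so, Nr2f1 missed the threshold, with a log2 change of −0.55 (SE 0.24, adjusted p = 0.092) at 8 weeks and −0.61 (SE 0.24, adjusted p = 0.099) at 24 h against before, by edgeR. Without the library labelled 24 h replicate 3, the 8-week change was −0.58 (SE 0.19, adjusted p = 0.025) and the 24 h change −0.41 (SE 0.21, adjusted p = 0.17).

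Nr2f2, on chromosome 7, was at 29.5, 26.6, 26.3, 29.2 and 30.7 FPKM before TAM, 21.8, 22.5, 54.4 and 24.1 FPKM at 24 h and 35.5, 45.6, 20.7 and 28.3 FPKM at 8 weeks. Apart from the library labelled 24 h replicate 3, the 24 h libraries lay below those from before, and the 8-week libraries fell on both sides of them. The log2 change was 0.31 (SE 0.24, adjusted p = 0.34) at 8 weeks against before and 0.10 (SE 0.24, adjusted p = 0.81) at 24 h against before, neither called by edgeR. Between 8 weeks and 24 h it was 0.20 (SE 0.26, adjusted p = 0.60), and 0.51 (SE 0.18, adjusted p = 0.0498) without the library labelled 24 h replicate 3. Nr2f2 has 2 listed transcript models, and the one that starts farther upstream (70351950 to 70366746 on mm10, minus strand) took 44.5% ± 15.3 of Nr2f2 FPKM at 8 weeks (SD, n = 4), 38.0% ± 11.5 at 24 h and 41.4% ± 3.21 before TAM (n = 5), and the 8-week libraries ranged from 28.6% to 57.8%.

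**Figure D3:**
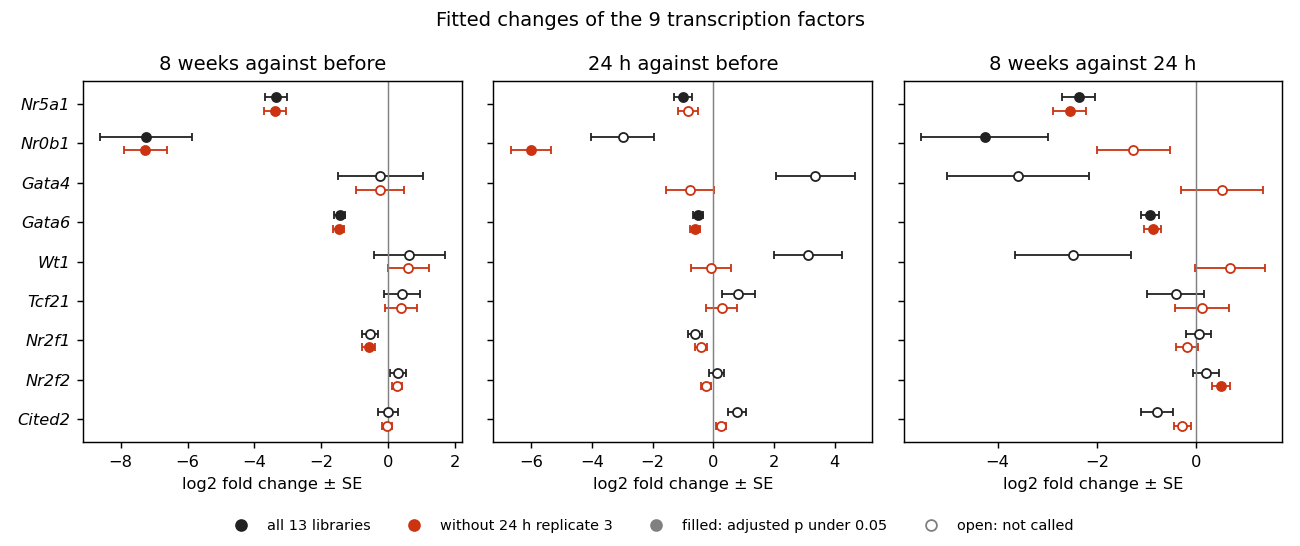
Fitted log2 fold changes (bars, 1 SE) of the 9 factors at 8 weeks against before, 24 h against before and 8 weeks against 24 h, with all 13 libraries in black and without the library labelled 24 h replicate 3 in red; filled points have an adjusted p under 0.05 by edgeR. At 8 weeks against before Nr5a1, Nr0b1 and Gata6 are filled in both fits and lie at −3.36, −7.24 and −1.45 in the fit of all libraries.

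Read as a set, the factors were called about as often as genes in general. In all, 3 of 9 were called at 8 weeks against before, all lower, against 36.9% of all genes tested (20.5% higher, 16.4% lower). At 24 h against before 2 of 9 were called, both lower, against 19.2% of all genes (12.6% higher, 6.63% lower), and at 8 weeks against 24 h 3 of 9, all lower, against 20.8% (10.1% higher, 10.6% lower). Without the library labelled 24 h replicate 3 the counts were 4 of 9 lower against 47.6% of all genes called (24.3% higher, 23.4% lower) at 8 weeks and 2 of 9 lower against 28.4% (16.6% higher, 11.8% lower) at 24 h. Between the later times they were 2 lower and 1 higher of 9 against 30.5% (12.8% higher, 17.7% lower). Nr0b1 and Gata6 were the 2 called at 24 h without that library, and Nr5a1 and Gata6 the 2 with it. Groups did not overlap for 4 of 9 factors at 8 weeks against before (Nr5a1, Nr0b1, Gata6 and Nr2f1, all lower), against 44.6% of all genes. The same held for 3 at 24 h against before (Nr5a1, Nr0b1 and Nr2f1), against 17.8%, and for 2 at 8 weeks against 24 h (Nr5a1 and Gata6), against 23.2%. The remaining factors were not called at 8 weeks against 24 h by edgeR: their log2 differences were −3.59 for Gata4, −2.48 for Wt1, −0.78 for Cited2, −0.41 for Tcf21, 0.056 for Nr2f1 and 0.20 for Nr2f2. Without the library labelled 24 h replicate 3 these were 0.53, 0.69, −0.28, 0.12, −0.18 and 0.51 in the same order. The sign thus turned for all but Cited2 and Nr2f2, and Nr2f2 was then called higher (adjusted p = 0.0498 by edgeR). The median log2 change of the factors was −0.23, 0.10 and −0.93 in these 3 comparisons, and that of all genes 0.030, 0.034 and −0.026. Each comparison with before uses the same 5 libraries. Over all genes, 2882 were called higher and 2311 lower at 8 weeks against before, and 2424 higher and 3054 lower without a scaling factor. Between 8 weeks and 24 h the calls were 1428 higher and 1495 lower, and 1181 higher and 2093 lower without it.

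**Figure D4:**
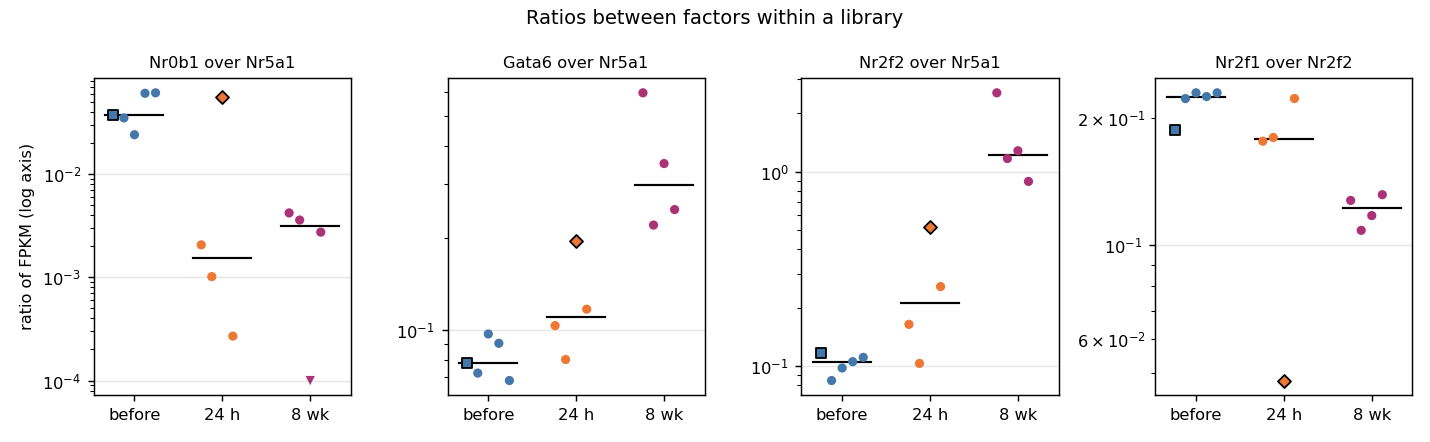
Ratios of FPKM between factors within each library (log axes), with the group median as a line; the diamond is the library labelled 24 h replicate 3, the square is before replicate 1 and the downward triangle is a ratio of 0. Nr2f2 over Nr5a1 lies between 0.894 and 2.56 at 8 weeks, above every library from before, and Nr2f1 over Nr2f2 lies below them.

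Ratios within a library describe how the balance of factors shifted, free of differences in depth. Nr2f2 stood at 0.103 ± 0.0125 of the Nr5a1 level in the libraries from before (SD, n = 5), at 0.262 ± 0.184 in those of 24 h and at 1.48 ± 0.737 in those of 8 weeks (SD, n = 4 each). The 24 h values were 0.164, 0.104 and 0.257 in replicates 1, 2 and 4 and 0.521 in the library labelled 24 h replicate 3. The 8-week libraries, at 2.56, 1.17, 1.29 and 0.894, lay on both sides of equal levels and above all others. Gata6 relative to Nr5a1 was 0.0813 ± 0.0122 before TAM, 0.124 ± 0.0499 at 24 h and 0.354 ± 0.171 at 8 weeks, and no 8-week library overlapped with those from before. At 24 h this ratio was 0.103, 0.0801 and 0.117 in replicates 1, 2 and 4 and 0.195 in the library labelled 24 h replicate 3. Nr0b1 relative to Nr5a1 was 0.0240 to 0.0612 before TAM, 0.00206, 0.00101 and 0.000269 in 24 h replicates 1, 2 and 4, 0.0562 in the library labelled 24 h replicate 3 and 0 to 0.00420 at 8 weeks. Nr2f1 relative to Nr2f2 was 0.219 ± 0.0180 before TAM, 0.157 ± 0.0754 at 24 h and 0.121 ± 0.0105 at 8 weeks, where its range of 0.109 to 0.132 lay below that of 0.187 to 0.229 from before. Its 24 h mean was lowered by the library labelled 24 h replicate 3, at 0.0479, and replicates 1, 2 and 4 were at 0.176, 0.180 and 0.222. These ratios are descriptions with no test.

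Co-regulators and developmental partners of these factors, a list of 38 genes of which 31 were tested, were called in 9 cases at 8 weeks against before, where 36.9% of all genes were called. Of these 3 rose and 6 fell, and the 31 had a median log2 change of −0.15 beside 0.030 for all genes. Nr0b2, the closest relative of Nr0b1 and likewise a repressor, was at 1.09 ± 0.763 FPKM at 8 weeks (SD, n = 4), against 13.5 ± 6.83 FPKM before TAM (n = 5), a log2 change of −3.47 (SE 0.57, adjusted p = 0.00054 by edgeR). It fell at 24 h too, by 1.86 on the log2 scale (SE 0.52, adjusted p = 0.025 by edgeR), to 3.68 ± 1.47 FPKM. The co-repressor Ncor1 fell by 0.41 (SE 0.14), the helicase Ddx20, which binds Nr5a1, by 0.61 (SE 0.16), and the acetyltransferase Crebbp by 0.79 (SE 0.26), at 8 weeks against before. Ppargc1a, a co-activator of energy metabolism, rose by 3.64 (SE 0.73) and Pbx2 by 0.50 (SE 0.12). Ppargc1a was at 2.19 to 5.26 FPKM at 8 weeks, against 0 to 0.497 FPKM before TAM, and it is also a gene of brown fat. Fat cell markers rose with it: 4 of 8 were called higher at 8 weeks and none lower, where 20.5% of all genes rose. Without the library labelled 24 h replicate 3 this was 7 of 8, where 24.3% of all genes rose. The sum of the fat cell markers was 4326 to 10644 FPKM at 8 weeks, against 181.0 to 1221 FPKM before TAM. The part of fat in the value of Ppargc1a was not tested. Among the partners 2 rose and 1 fell at 24 h against before, where 19.2% of all genes were called. The risers were Cbx2, at 0.94 (SE 0.26, adjusted p = 0.021), and Nr5a2, whose 3.75 (SE 1.11, adjusted p = 0.032) rested on the library labelled 24 h replicate 3, since the other 24 h libraries stood at 0.632 to 0.746 FPKM, against 0.322 to 0.857 FPKM before TAM. Without that library 4 partners rose and 10 fell at 8 weeks against before, where 47.6% of all genes were called. At 24 h 1 rose and 2 fell without it, where 28.4% of all genes were called. Between 8 weeks and 24 h 4 rose and 4 fell, with and without that library, where 20.8% and 30.5% of all genes were called.

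Known targets of Nr5a1 numbered 14, all tested. Star is among them and is the gene that TAM deletes, so its fall, counted below at both times, was set by the design. Of the targets, 6 fell and none rose at 8 weeks against before, where 16.4% of all genes fell, and the 14 had a median log2 change of −1.95. Without the library labelled 24 h replicate 3, 11 fell, where 23.4% of all genes fell. The 4 with the lowest p were Hsd3b1, an enzyme of steroid synthesis, at −3.37 (SE 0.38), Fdxr, which feeds electrons to the mitochondrial enzymes, at −2.76 (SE 0.44), Star itself at −4.56 (SE 0.78) and Cyp11a1, the side-chain cleavage enzyme, at −1.99 (SE 0.45). The early comparison, 24 h against before, had 1 riser (Inha) and 2 that fell (Hsd3b1 and Star), so that 3 of 14 were called where 19.2% of all genes were, with a median of −0.17. Without that library 3 rose and 3 fell, where 16.6% of all genes rose and 11.8% fell. Cyp11a1 was at 2593 to 4656 FPKM in 24 h replicates 1, 2 and 4, against 2280 to 4148 FPKM before TAM, while Nr5a1 in the same 24 h libraries was at 93.6 to 218 FPKM, below all those from before. Between 8 weeks and 24 h 6 fell and none rose, where 10.6% of all genes fell, and 13 fell without that library, where 17.7% of all genes fell.

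Zona glomerulosa markers (8 tested), genes of the outer cortical zone where new cortical cells arise, mostly fell at 8 weeks and were mixed at 24 h. Of these, 6 of 8 fell at 8 weeks against before, where 16.4% of all genes fell, and none rose, with a median of −3.49. All 8 fell without the library labelled 24 h replicate 3, where 23.4% of all genes fell. Dab2 changed by −2.99 (SE 0.33), Wnt4 by −3.99 (SE 0.54), Vsnl1 by −5.46 (SE 0.77) and Shh, the signal that outer cortical cells send to capsular cells, by −5.41 (SE 1.08). The number that fell at 24 h against before was 3, with and without that library, where 6.63% and 11.8% of all genes fell. Without it 1 rose, where 16.6% of all genes rose: Cyp11b2, at 1.56 (SE 0.45, adjusted p = 0.021 by edgeR). Vsnl1 was at 0.898 ± 0.722 FPKM at 24 h (SD, n = 4), against 21.1 ± 2.41 FPKM before TAM (n = 5), and the 24 h range of 0.0329 to 1.80 FPKM was wholly below that from before. The 2 markers of the X-zone, the inner zone left from fetal life, were not called in any comparison, and one of them, Akr1c18, ran from 0.0695 to 1779 FPKM among the libraries from before.

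Markers of macrophages and lymphocytes rose over the same times as the factors changed, none of the medulla was called with all libraries, and the part of other cell types in the changes of the factors was not tested. Macrophage markers (9 tested of 10) all rose at 8 weeks and at 24 h against before, where 20.5% and 12.6% of all genes rose. Their sum was 399.4 to 1141 FPKM before TAM, 2639 to 4469 FPKM at 24 h and 6044 to 11418 FPKM at 8 weeks. Lymphocyte markers rose in 6 of 6 at 8 weeks and in 2 of 6 at 24 h against before, beside the same 20.5% and 12.6% of all genes. Lymphocyte sums were 5.34 to 12.6 FPKM before TAM, 17.7 to 30.7 FPKM at 24 h and 26.6 to 72.2 FPKM at 8 weeks. Endothelial markers fell in 1 of 8 at 8 weeks against before, where 16.4% of all genes fell. Without the library labelled 24 h replicate 3 this was 4 of 8, against 23.4% of all genes. At 24 h 1 of 8 rose, against 12.6% of all genes, and 5 of 8 without that library, against 16.6%. Endothelial sums were 303.0 to 340.1 FPKM before TAM, 129.3 to 648 FPKM at 24 h and 200.01 to 289 FPKM at 8 weeks. None of the 10 medulla markers was called in any comparison of all libraries (1 was higher at 8 weeks, against each earlier time, without the library labelled 24 h replicate 3), and their sums were 1200 to 5248 FPKM before TAM, 20.01 to 4180 FPKM at 24 h and 5275 to 7783 FPKM at 8 weeks. Of 10 gonadal markers only Sox9 was listed throughout, and it rose by 1.08 (SE 0.30, adjusted p = 0.014 by edgeR) at 8 weeks against before. At 24 h against before Sox9 was called higher too, at 1.06. Without the library labelled 24 h replicate 3 that change was 1.07 (SE 0.32, adjusted p = 0.027 by edgeR). No kidney marker of 7 was listed for all libraries.

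**Figure D5:**
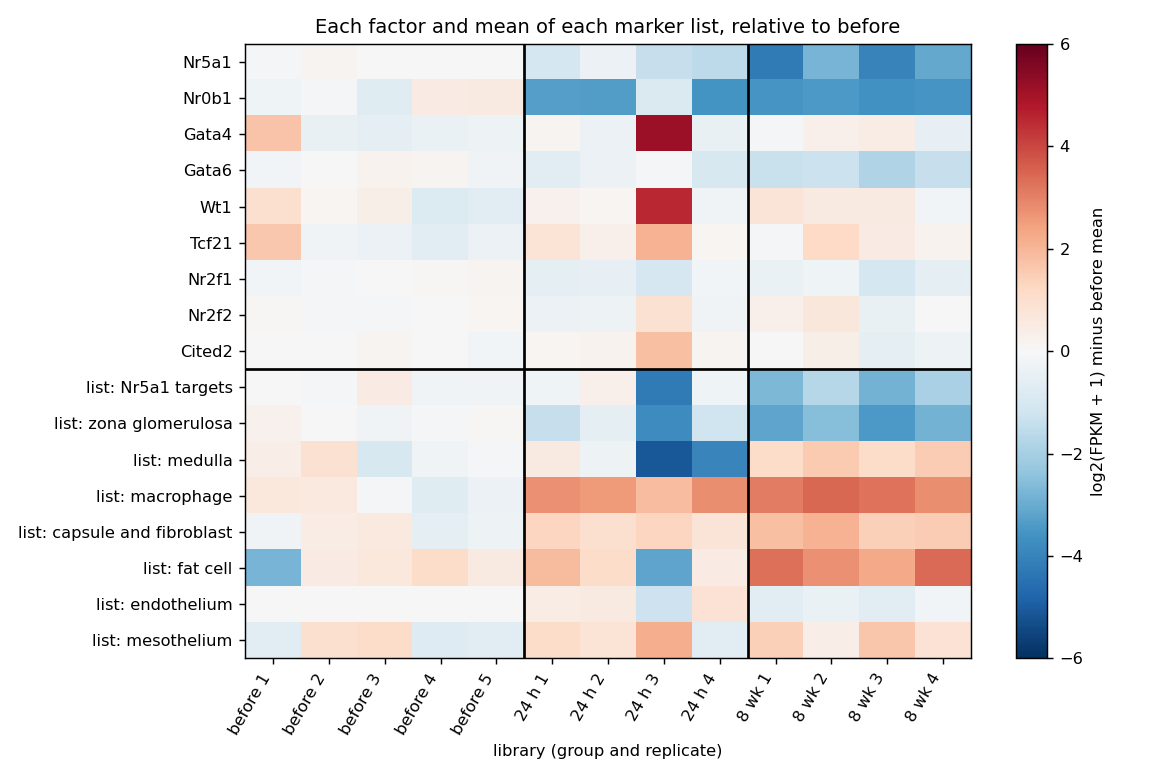
Difference of log2(FPKM + 1) from the mean before TAM (colour) for each factor (upper rows) and for the mean over each marker list (lower rows) in each library (columns). Nr5a1 and the lists of its targets and of zona glomerulosa genes are blue in all 8-week libraries, while the macrophage and capsule lists are red there, and the library labelled 24 h replicate 3 is dark red for Gata4 and Wt1.

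Across the 13 libraries the factors fell into groups of like course, given as Pearson correlations of log2(FPKM + 1) that describe these libraries and carry no p, since all points share the 3 time groups. Nr5a1 and Gata6 were correlated at 0.93, Nr0b1 and Gata6 at 0.83 and Nr5a1 and Nr0b1 at 0.75. Gata4 and Wt1 reached 0.94, which was 0.63 without the library labelled 24 h replicate 3. Gata4 and Tcf21 stood at 0.83 both with and without it. Cited2 and Nr2f2 reached 0.71, and 0.35 without it. Among 9285 genes with a mean of at least 5 FPKM, those most like Nr5a1 were Uxs1 (0.986), Fgfr2 (0.983) and Paqr8 (0.980), and those most like Gata6 were Prmt5 (0.984), Mast4 (0.975) and Mfn1 (0.975). The genes most like Nr0b1 were Nfat5 (0.983), Smad9 (0.977) and 4930426D05Rik (0.971). For these 3 factors, leaving out the library labelled 24 h replicate 3 left each value between 0.974 and 0.988. For Tcf21 they were the matrix genes Egflam (0.934) and Lama2 (0.928) and the smooth muscle kinase Mylk (0.900), at 0.960, 0.883 and 0.867 without that library. The genes most like Gata4 (C1qtnf1, Kctd14 and Cryl1) and Wt1 (Grb14, Kctd14 and Sulf2) rested on that library, with C1qtnf1 at 0.980 and 0.864 without it, and Grb14 at 0.956 and 0.677 without it. For Nr2f1 the likest were Brk1, Psmc5 and Mrps23 (0.919 to 0.932), for Nr2f2 Tada1, Slc7a6os and Cbx3 (0.930 to 0.932) and for Cited2 Rnf34, Cct4 and Eef1g (0.951 to 0.958). Without that library the values were 0.894 to 0.914 for Nr2f1, 0.870 to 0.895 for Nr2f2 and 0.793 to 0.879 for Cited2.

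Noncoding neighbours on the opposite strand overlap 5 of the factors in the GENCODE annotation of GRCm38, and the sources used here do not state whether the authors' counting used strand, so reads of each pair cannot be told apart with certainty. A830082K12Rik shares 966 bases with Nr2f1 and fell at both later times. It was at 0.557 to 0.849 FPKM at 8 weeks, against 3.23 to 4.15 FPKM before TAM, a log2 change of −2.23 (SE 0.26, adjusted p = 4.7e-05 by edgeR), and at 24 h the change was −1.65 (SE 0.25, adjusted p = 0.00081). 1010001N08Rik, which shares 58 bases with Gata6, was at 1.16 to 2.501 FPKM at 8 weeks, against 7.18 to 9.77 FPKM before TAM, a log2 change of −2.28 (SE 0.28, adjusted p = 6.7e-05 by edgeR). Its change at 24 h against before was −1.43 (SE 0.27, adjusted p = 0.0027 by edgeR). B130024G19Rik, beside Nr2f2, was not called at 8 weeks against before (log2 change 0.47, SE 0.49, adjusted p = 0.47 by edgeR). Nr5a1os, which shares 1867 bases with Nr5a1, and Gm10824, which covers Tcf21, are not analysed here.

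The authors' deposited table of 8 weeks against before gave, for the same transcripts, a log2 ratio of −3.60 for Nr5a1 (q = 0.00058), −1.58 for Gata6 (q = 0.00077), −9.45 for Nr0b1 (q = 0.015) and −0.71 for Nr2f1 (q = 0.036). In the authors' deposited table the q-values of Gata4, Wt1, Tcf21, Cited2 and both Nr2f2 models were 0.38 or higher. Nr2f1 is thus called in the authors' deposited table and missed the threshold in the fit of all 13 libraries.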

How the data were processed

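Messenger RNA libraries were made with a stranded kit, per the labels' protocols, and the submitters' processing notes name TopHat2 2.0.14, bcl2fastq 2.17 and the mouse build mm10 (GRCm38). In the deposited tables stand an expected count (an estimated number of reads, which need not be whole) and FPKM for each RefSeq transcript and library, per the file headers. The authors' table of 8 weeks against before gives log2 values and a q-value per transcript, per the file headers. Listed reads made up 86.5% to 93.0% of the totals implied by FPKM. The tables list 19655 transcripts (before and 8 weeks) and 19191 (24 h), of which 18738 are shared.

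Expected counts were summed per gene over the shared transcripts and rounded. The quasi-likelihood test of edgeR 4.0.16, run in R 4.3.3 after filterByExpr and TMM scaling, covered all 14078 genes in 1 fit of 13 libraries, with p-values adjusted by Benjamini and Hochberg's method and called under 0.05. Standard errors come from the log2 fold change over the square root of F. FPKM were summed per gene and used as deposited. Fold changes are on the log2 scale, the tested time over its baseline. The 9 factors and the lists of partners, targets and cell markers were chosen with earlier results of these data known. Genes named are the 9 factors, Star, the 3 genes most like each factor, up to 8 called partners and up to 4 called genes of other lists, in order of p; genes singled out beyond this (Gdf9, Dppa3, Foxl2, Nr5a2, Inha, Xist, the strand neighbours, and examples of listed genes) were chosen after their values were seen. The test was tried on simulated data. Alternatives were DESeq2 1.42.0, other scaling, limma 3.58.1 fits, subsets of groups, a replicate block and leaving out libraries, and 2 sets of left-out libraries were added after seeing the data. Replicate numbers are the labels' own. Some partners that this rule names are not reported here.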

Additional observations from a re-analysis of the deposited data

Results flagged for a closer look

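In 7 of 27 groups of libraries (9 factors in 3 groups), 1 library lay far from the others of its group, where chance gives about 1 in 20. Of these, 5 are the library labelled 24 h replicate 3. It held 5.87 FPKM of Nr0b1, against 0.0252 to 0.273 FPKM in the other 24 h libraries. For Gata4 it held 83.0 FPKM, against 0.773 to 1.65 FPKM, and for Wt1 49.2 FPKM, against 0.906 to 1.62 FPKM. Its level was 54.4 FPKM for Nr2f2, against 21.8 to 24.1 FPKM, and 112.5 FPKM for Cited2, against 33.3 to 36.6 FPKM. The other 2 are before replicate 1, with 6.81 FPKM of Gata4, against 0.567 to 0.955 FPKM in the other libraries from before, and 28.4 FPKM of Tcf21, against 5.24 to 7.35 FPKM.

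Changes at 8 weeks and at 24 h, both against before, differed for 3 factors by the test of 8 weeks against 24 h in the edgeR fit. The difference was −2.36 on the log2 scale for Nr5a1, −0.93 for Gata6 and −4.26 for Nr0b1. That of Nr0b1 was −1.26 with an adjusted p of 0.21 without the library labelled 24 h replicate 3.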

How the results depend on the processing

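The falls of Nr5a1, Nr0b1 and Gata6 at 8 weeks against before were called under every alternative run. The calls at 24 h rest on few libraries: leaving out 1 library in turn gave 0 to 3 of the 9 factors, and none without before replicate 2, 3 or 4. Over all genes, leaving out 1 library gave from 1851 calls (without before replicate 5) to 3998 (without the library labelled 24 h replicate 3). Of the factors' fold changes under the alternatives, 531 kept direction and side of the threshold, 35 were weaker, 31 stronger and 49 reversed. At 8 weeks against before 5193 genes were called in the fit reported, 7895 with only the groups compared and all transcripts listed for both, and 8101 with limma library quality weights. The factors called numbered 6 with the quality weights and 6 without before replicate 1 and 24 h replicate 3 (3 in the fit reported). Over all genes these fits called 8101 and 6413 of 14078 (5193 in the fit reported), so calls rose in general. At 24 h against before 5378 genes and 4 factors were called with the quality weights (2708 and 2 in the fit reported). There 1 factor was called with no scaling factor, 1 with only the groups compared on shared transcripts, 1 on all transcripts listed for both, and 1 without 24 h replicates 3 and 4. Genes called in these fits numbered 2581, 2108, 2108 and 2960 in the same order. At 8 weeks against 24 h 973 genes were called with only the groups compared, on shared transcripts and on all transcripts alike (2923 in the fit reported), and between 1782 (without 8-week replicate 1) and 4300 (without the library labelled 24 h replicate 3) leaving out 1 library; without 8-week replicates 2 and 4 the counts were 1808 and 1941. The cause of these shifts was not tested. Deviations of same-numbered libraries from their group means were correlated over genes at −0.125 to 0.277. These values cannot show whether the labels' replicate numbers pair the samples. With the replicate block 3848, 1312 and 1661 genes were called in the 3 comparisons, and 1 factor at 24 h against before. No scaling factor moved the median of all genes at 8 weeks against before to −0.097, against 0.030 in the fit reported, so changes of that size carry no direction. The filter on low counts removed no gene, so leaving it out changed nothing.

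Reversed log2 changes were all of factors not called in the fit reported. For Gata4 at 8 weeks against before (−0.23 in the fit reported) the value was 0.54 with quality weights, 0.032 with limma-trend on log2(FPKM + 1), 0.18 on log2(FPKM + 0.1), 1.09 without before replicate 1 and 24 h replicate 3, and −0.57 to 1.13 leaving out 1 library. For Cited2 at 8 weeks against before (0.00041) it was −0.014 with DESeq2, −0.12 with no scaling factor, −0.033 and −0.066 with only the groups compared on shared and all transcripts, −0.013 with the replicate block, −0.15 and −0.16 with limma-trend on log2(FPKM + 1) and log2(FPKM + 0.1), −0.033 without 24 h replicates 3 and 4, −0.043 without before replicate 1 and 24 h replicate 3, and −0.16 to 0.10 leaving out 1 library. At 24 h against before Gata4 was −0.60 without 24 h replicates 3 and 4 and −0.77 to 4.72 leaving out 1 library, and Wt1 −0.087 to 3.66. Nr2f2 at 24 h was −0.32 with quality weights, −0.0029 and −0.0057 with limma-trend on log2(FPKM + 1) and log2(FPKM + 0.1), −0.32 without 24 h replicates 3 and 4, −0.23 without before replicate 1 and 24 h replicate 3, and −0.24 to 0.23 leaving out 1 library. At 8 weeks against 24 h the values with quality weights, without 24 h replicates 3 and 4, and without before replicate 1 and 24 h replicate 3 were 0.095, 0.36 and 0.53 for Gata4 and 0.27, 0.52 and 0.69 for Wt1, with −3.99 to 0.53 and −2.87 to 0.69 leaving out 1 library. Tcf21 was 0.051 with quality weights, 0.12 without before replicate 1 and 24 h replicate 3, and −0.68 to 0.12 leaving out 1 library. Nr2f1 was −0.016 and −0.022 with limma-trend on log2(FPKM + 1) and log2(FPKM + 0.1), −0.18 without before replicate 1 and 24 h replicate 3, and −0.18 to 0.24 leaving out 1 library.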
